A study of Mus musculus with 6 samples.

Results

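The insulin-like growth factor (IGF) and insulin receptor system was followed through 10 genes in the RNA-seq data of cultured mouse granulosa cells (GCs): *Igf1*, *Igf1r*, *Insr*, *Irs1*, *Irs2*, *Igfbp2*, *Igfbp3*, *Igfbp4*, *Igfbp5* and *Pappa*. They were taken by name from a table of 16300 genes, and all 10 had a mean normalized count of at least 10, the minimum for testing, which left 16292 genes in all. GCs line the ovarian follicle around the oocyte and nourish it. They were isolated from wild type C57BL/6J mice aged 8 to 9 weeks, cultured, deprived of serum, and kept in medium alone (control, 3 libraries) or with 25 nM dihydrotestosterone (DHT), an androgen that aromatase cannot turn into estrogen, for 24 h (3 libraries). Each library pooled the GCs of 5 mice, so a p-value measures the spread between pooled cultures. In the labels, the extraction text speaks of whole ovary and the treatment text gives DHT for each sample, and the groups come from the treatment entry that separates control from DHT.

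IGF1 binds the IGF1 receptor (*Igf1r*) and, more weakly, the closely related insulin receptor (*Insr*). Both receptors are tyrosine kinases that phosphorylate the docking proteins IRS1 and IRS2, which recruit PI3K and thereby switch on AKT, and AKT keeps FOXO transcription factors out of the nucleus. Secreted IGF-binding proteins (*Igfbp* genes) hold IGF1 and IGF2 away from the receptor until proteases such as PAPPA cleave them, and in the mouse ovary GCs are themselves a source of IGF1, which strengthens their response to FSH.

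By limma on log2(normalized count + 1), adjusted over all genes tested, *Igfbp2* and *Irs1* were lower and *Irs2* and *Insr* were higher in DHT-treated GCs (limma adjusted p up to 0.0243, with 0.05 as the threshold). That is 2 of 10 genes higher, where 6.52% of all genes tested were called higher, and 2 of 10 lower, where 4.66% were called lower. *Igf1*, *Igf1r*, *Igfbp3*, *Igfbp4*, *Igfbp5* and *Pappa* did not pass. None of the 10 also had an absolute log2 fold change above 1, a rule that 1.31% of all genes met. The median log2 fold change of the 10 genes was -0.12, and that of all genes tested was -0.01.

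**Figure D1:**
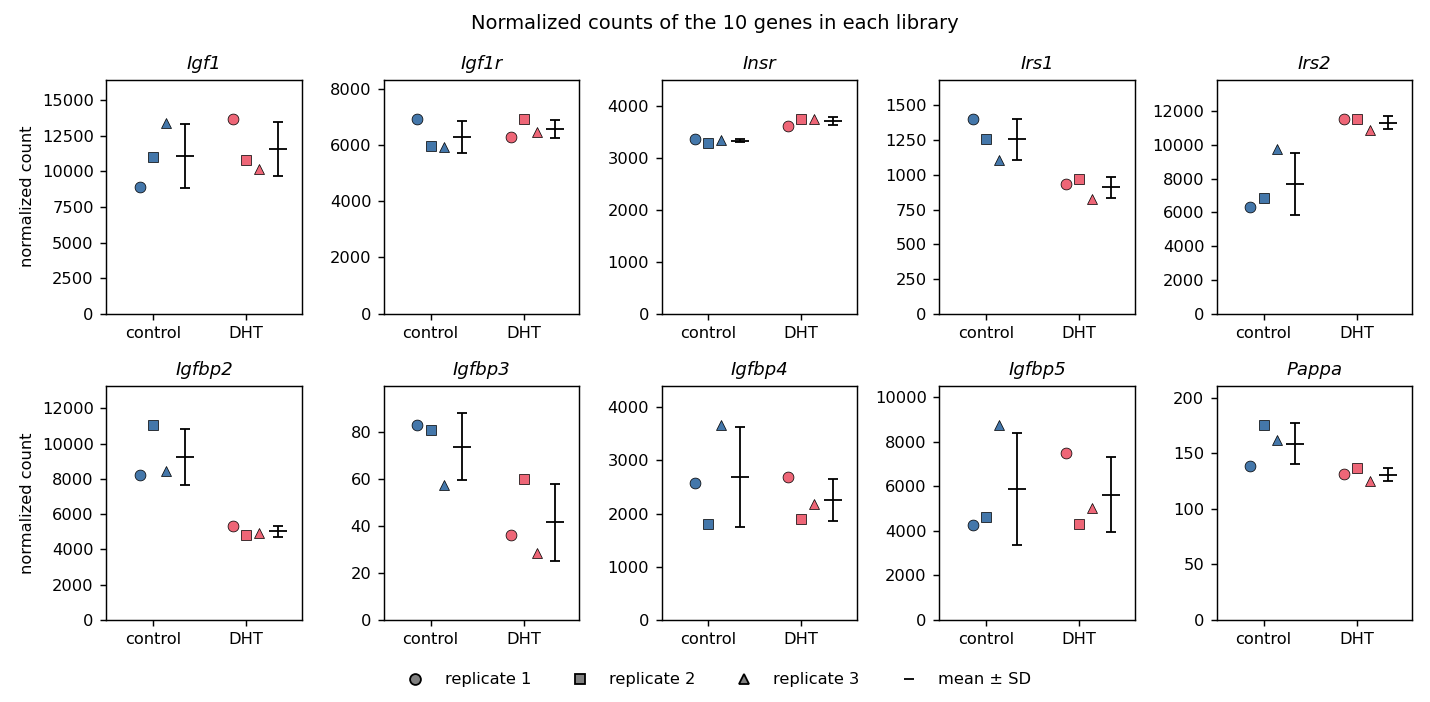
Normalized count of each of the 10 genes (vertical axes, starting at 0) in the control and DHT libraries, with 1 symbol per replicate and the mean ± SD of the 3 libraries beside it. The DHT libraries lie apart from the control libraries for *Insr*, *Irs1*, *Irs2*, *Igfbp2* and *Pappa*, while *Igf1*, *Igfbp4* and *Igfbp5* spread widely within both groups.

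The promoters of the 3 called genes with the greatest fold changes are shown first, because these genes moved in both directions and androgens and FOXO factors act through short DNA elements. The RefSeq table (GRCm38.p6) held promoters for 8 of the 10 genes, 9 windows in all, each with 250 bases before and 50 after the transcription start. Capitals mark a match, on either strand, to AGAACA, a single arm of the longer androgen response element, which 19.0% of all promoters in the table hold, or to the FOXO core TGTTTAC, which 3.65% hold.
Igfbp2, chr1:72824230-72824529, plus strand: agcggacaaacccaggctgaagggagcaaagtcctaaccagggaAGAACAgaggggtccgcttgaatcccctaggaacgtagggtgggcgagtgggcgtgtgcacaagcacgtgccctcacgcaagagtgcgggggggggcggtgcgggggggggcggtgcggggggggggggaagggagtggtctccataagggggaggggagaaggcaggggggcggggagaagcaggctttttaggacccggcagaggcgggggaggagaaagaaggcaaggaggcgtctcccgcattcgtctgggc
Irs1, chr1:82291390-82291689, minus strand: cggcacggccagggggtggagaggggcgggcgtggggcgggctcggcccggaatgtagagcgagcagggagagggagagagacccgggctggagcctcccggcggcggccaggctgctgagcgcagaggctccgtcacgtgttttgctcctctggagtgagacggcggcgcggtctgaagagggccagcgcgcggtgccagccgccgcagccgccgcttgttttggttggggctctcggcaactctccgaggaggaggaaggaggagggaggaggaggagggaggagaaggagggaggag
Irs2, chr8:11008880-11009179, minus strand: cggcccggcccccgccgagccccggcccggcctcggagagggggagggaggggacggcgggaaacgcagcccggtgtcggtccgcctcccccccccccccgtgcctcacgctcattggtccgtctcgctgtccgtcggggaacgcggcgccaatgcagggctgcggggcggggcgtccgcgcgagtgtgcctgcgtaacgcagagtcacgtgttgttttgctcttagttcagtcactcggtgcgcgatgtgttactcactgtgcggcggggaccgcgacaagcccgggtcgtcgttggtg
The *Igfbp2* window shown holds 1 AGAACA match on the plus strand, beginning at position -206 from the start, and it is the only one of the 9 windows with a match to either motif. The table holds a further *Igfbp2* window (chr1:72825137-72825436, plus strand), which has no match. The *Irs1* and *Irs2* windows are rich in G and C, at 71.3% and 72.0%, and hold neither motif. The *Irs2* window begins 422 bases outside the *Irs2* gene of the GENCODE annotation, whose start differs from that of RefSeq. A match to these letters is a description of the window and does not show binding.

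*Igf1*, the ligand, was among the abundant genes of the group and did not differ between the groups beyond its spread. It lies on chromosome 10 (87858265 to 87937042, plus strand, GRCm38). Its normalized counts (reads divided by the size factor of the library) were 8885, 11034 and 13394 in the control libraries and 13708, 10819 and 10145 in the DHT libraries. The groups overlap, and the highest control library and the highest DHT library were nearly level. Between the groups the log2 fold change was 0.07 ± 0.15 (SE), with a 95% interval of -0.27 to 0.40 (limma adjusted p = 0.831). It fell below 0 without control replicate 1 (-0.09) and without DHT replicate 1 (-0.06), so no direction can be given.

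The differences of the receptors were small. *Igf1r*, the receptor with the higher affinity for IGF1, had normalized counts of 6932, 5972 and 5929 in control GCs and 6286, 6914 and 6460 in DHT-treated GCs. These values overlap, with a log2 fold change of 0.06 (95% interval -0.08 to 0.21, limma adjusted p = 0.587). *Insr*, the insulin receptor, had 3362, 3292 and 3334 in control GCs and 3618, 3748 and 3750 in DHT-treated GCs. The DHT libraries were all above the control libraries, by a small margin that was larger than the spread within either group. The log2 fold change of *Insr* was 0.15 ± 0.04 (SE), or 1.11-fold (limma adjusted p = 0.0243). The call held in 3 of 6 fits that left out 1 library and was lost without control replicate 2 (0.0721), DHT replicate 2 (0.113) or DHT replicate 3 (0.0944), as limma adjusted p. The log2 fold change stayed between 0.15 and 0.17 in these fits. The *Insr* call was also lost with the replicate block and without the intensity trend (limma adjusted p = 0.108 and 0.0919). Expressed as RPKM (reads scaled to the exon length and to the total of the library), *Insr* stood to *Igf1r* at a mean ratio of 0.651 ± 0.051 in controls and 0.691 ± 0.025 with DHT (SD, n = 3), and the libraries overlapped.

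The docking proteins moved in opposite directions. *Irs1* had normalized counts of 1404, 1258 and 1106 in control GCs and 936, 972 and 827 in DHT-treated GCs, with no overlap between the groups. Its log2 fold change was -0.46 ± 0.09 (SE), which is 1.37-fold lower with DHT (limma adjusted p = 0.0136). Leaving out DHT replicate 3, the lowest library, gave a limma adjusted p of 0.0603 and a log2 fold change of -0.39. The *Irs1* call was also lost without the intensity trend (limma adjusted p = 0.0854). The 9144 exonic bases of *Irs1* (chromosome 1, 82233101 to 82291416, minus strand) overlap the gene model *Gm9747* on the other strand over 2822 bases. The strand setting of the counting is not given in the sources used here, so reads of both genes could not be told apart if strand was not used.

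*Irs2* had normalized counts of 6355, 6866 and 9764 in control GCs and 11562, 11517 and 10898 in DHT-treated GCs. The DHT libraries lay close together, and the third control library stood between the other controls and the DHT libraries. Its log2 fold change was 0.59 ± 0.13 (SE) (limma adjusted p = 0.0224). The call held in 1 of 6 fits that left out 1 library, the one without control replicate 3, with a limma adjusted p of 4.95e-05 and a log2 fold change of 0.78. The limma adjusted p was 0.0507 without control replicate 1, 0.0798 without control replicate 2, 0.0645 without DHT replicate 1, 0.0772 without DHT replicate 2 and 0.0704 without DHT replicate 3. The log2 fold change in these fits was 0.47 or more. The *Irs2* call was also lost without the intensity trend (limma adjusted p = 0.121). The *Irs2* exons (chromosome 8, 10984681 to 11008458, minus strand) overlap the gene model *9530052E02Rik* on the other strand over 162 of 6323 bases.

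Per length, *Irs2* was the more abundant docking protein transcript in every library. The ratio of *Irs2* to *Irs1* was 6.55, 7.89 and 12.8 in the control libraries and 17.9, 17.1 and 19.1 in the DHT libraries. Its mean was 9.07 ± 3.27 in controls and 1.99 times as high, 18.0 ± 0.97, with DHT (SD, n = 3). The groups did not overlap, which follows from the separation of both genes in opposite directions and adds nothing to it. *Irs3*, a further family member, was low and variable, with normalized counts from 3.91 to 53.4, and did not pass the test (limma adjusted p = 0.309).

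**Figure D2:**
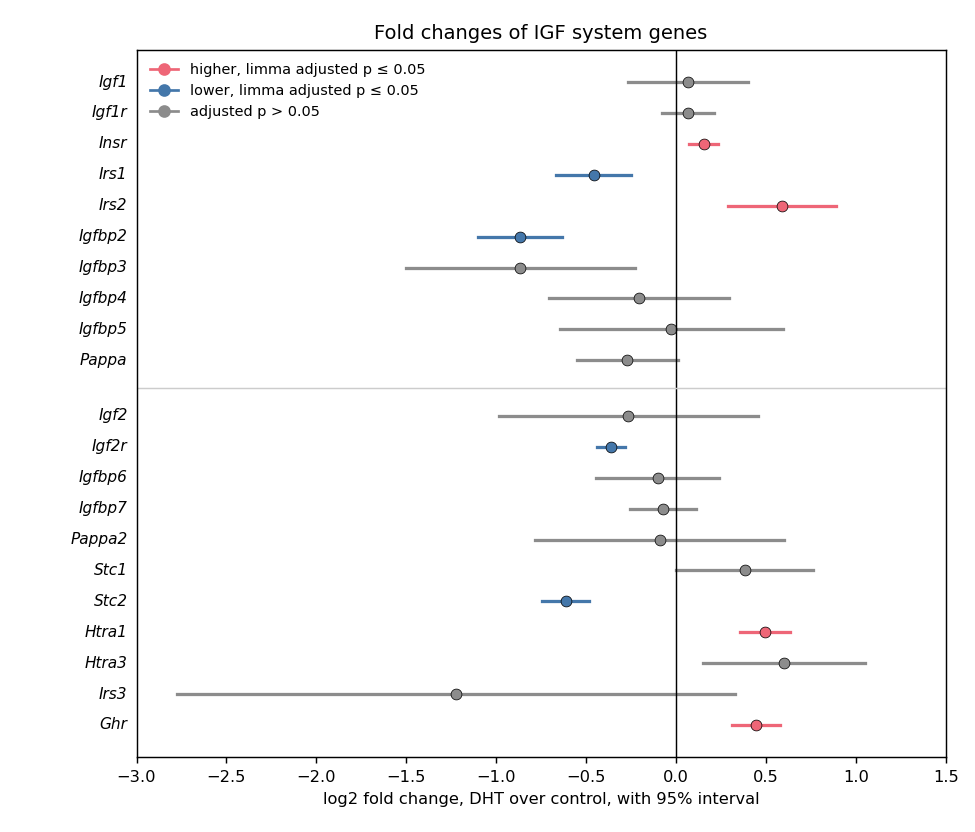
Log2 fold change of DHT over control (horizontal axis) with its 95% interval, from the limma fit on 3 control and 3 DHT libraries. The 10 genes are above the line, and below it are 11 other ligands, receptors, binding proteins and regulators, with *Irs3* counted among them. Coloured points passed the adjusted p of 0.05, and the intervals of *Irs3*, *Igf2*, *Pappa2*, *Igfbp3*, *Igfbp5* and *Igfbp4* are the widest.

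*Igfbp2* had the lowest adjusted p of the 10 genes. IGFBP2 binds both IGFs and is among the binding proteins made in the follicle. Its normalized counts were 8196, 11057 and 8424 in control GCs and 5349, 4790 and 4899 in DHT-treated GCs. Each DHT library lay below each control library, and the controls spread more widely, with an SD of 1590 against 296 (n = 3). This is a log2 fold change of -0.87 ± 0.10 (SE), with a 95% interval of -1.10 to -0.64, which is 1.83-fold lower with DHT (limma adjusted p = 0.000978). The call held in 6 of 6 fits that left out 1 library (limma adjusted p from 0.000391 to 0.00879) and in every other fit tried, with 0.0304 as the highest adjusted p.

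The other binding proteins did not pass the test. *Igfbp3*, which carries much of the IGF1 of the circulation, was scarce, with normalized counts of 83.1, 80.8 and 57.4 in control GCs and 36.2, 60.0 and 28.3 in DHT-treated GCs. The second DHT library reached into the range of the controls. For *Igfbp3* the log2 fold change was -0.87 ± 0.28 (SE; limma adjusted p = 0.0881). *Igfbp3* passed in 1 of 6 fits that left out 1 library, the one without DHT replicate 2 (-1.16, limma adjusted p = 0.0316). Without DHT replicate 3 its log2 fold change was -0.63 (limma adjusted p = 0.256).

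*Igfbp4*, the main substrate of PAPPA, had normalized counts of 2583, 1806 and 3670 in control GCs and 2692, 1901 and 2182 in DHT-treated GCs. *Igfbp5* had 4250, 4601 and 8748 in control GCs and 7502, 4282 and 5037 in DHT-treated GCs. In both genes the groups overlapped, the third control library was the highest of all and the first DHT library the next. The log2 fold change was -0.21 for *Igfbp4* (95% interval -0.71 to 0.30, limma adjusted p = 0.621) and -0.03 for *Igfbp5* (95% interval -0.65 to 0.59, limma adjusted p = 0.963). Both turned positive without control replicate 3 (0.05 and 0.30), and *Igfbp5* also without DHT replicate 2 (0.15) or 3 (0.03). Intervals of this width leave room for a change in either direction.

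*Igfbp2* (chromosome 1, 72824503 to 72852474, plus strand) and *Igfbp5* (72857932 to 72874884, minus strand) are neighbours that face each other tail to tail, 5457 bases apart with 0 protein-coding genes between them. The *Igfbp2* values separated the groups, and those of *Igfbp5* did not. The per-length ratio of *Igfbp5* to *Igfbp2* was 0.159, 0.128 and 0.319 in control and 0.431, 0.275 and 0.316 in DHT-treated GCs, and these values overlap.

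*Pappa*, the protease that frees IGF from IGFBP4 and some other binding proteins, was low, with normalized counts of 139, 176 and 162 in control GCs and 131, 136 and 125 in DHT-treated GCs. The groups did not overlap, but the highest DHT library was close to the lowest control library. Its log2 fold change was -0.27 ± 0.12 (SE; limma adjusted p = 0.217). In all, 5 of the 10 genes had groups without overlap, where 30.6% of all genes tested did.

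Levels of the transcripts were compared with each other as RPKM. *Igfbp2* was the most abundant of the 10 in both groups, at 130 ± 22 (SD, n = 3) without and 69.2 ± 4.6 with DHT. In control GCs it was followed by *Irs2* (31.5 ± 7.2), *Igf1* (29.1 ± 5.6), *Igfbp5* (25.3 ± 10.6), *Igfbp4* (15.8 ± 5.4) and *Igf1r* (9.73 ± 0.97). Each neighbouring pair from *Irs2* to *Igf1r* overlapped between libraries, so neighbours in this order were not set apart. *Insr* (6.30 ± 0.11), *Irs1* (3.58 ± 0.46), *Igfbp3* (0.614 ± 0.123) and *Pappa* (0.374 ± 0.042) came last, each apart from the next. In DHT-treated GCs the order of the means was the same, with *Irs2* at 45.6 ± 1.7, now apart from *Igf1* at 29.8 ± 5.1 (SD, n = 3). *Igfbp4* was now also apart from *Igfbp5* and from *Igf1r*. *Igf1* and *Igfbp5* still overlapped, and *Igfbp3* and *Pappa*, apart in controls, overlapped with DHT.

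The 4 *Igfbp* genes among the 10 were added up per length. *Igfbp7*, whose product binds IGFs weakly, at 35.9 RPKM in control and 33.4 RPKM in DHT-treated GCs, and *Igfbp6*, at 4.20 and 3.88 RPKM, are not in this sum. The sum was 151, 187 and 177 in the control libraries and 122, 95.3 and 101 in the DHT libraries. The DHT libraries were all below the controls, with means of 172 ± 18 and 106 ± 14 (SD, n = 3), a ratio of 0.620. With *Igfbp6* and *Igfbp7* added, a sum chosen after seeing the data, the means were 212 and 144, a ratio of 0.679, and *Igfbp2* made up 61.2% and 48.2%, from 54.9% to 67.7% in control and from 47.7% to 48.7% in DHT libraries, with no overlap. The mean of the sum differed by 65.3 RPKM between the groups and that of *Igfbp2* alone by 60.7 RPKM. *Igfbp2* made up 75.6 ± 8.5% of the sum of 4 without and 65.4 ± 4.2% with DHT (SD, n = 3), and these shares overlapped between the groups. *Igfbp5* made up 14.7 ± 5.7% and 22.1 ± 3.7%, and *Igfbp4* 9.32 ± 3.29% and 12.2 ± 0.7%, in the same order. *Igf1* per unit of the sum was 0.156, 0.155 and 0.197 in control and 0.290, 0.291 and 0.256 in DHT-treated GCs, with no overlap. These are transcript levels, and the amounts of the secreted proteins were not measured.

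**Figure D3:**
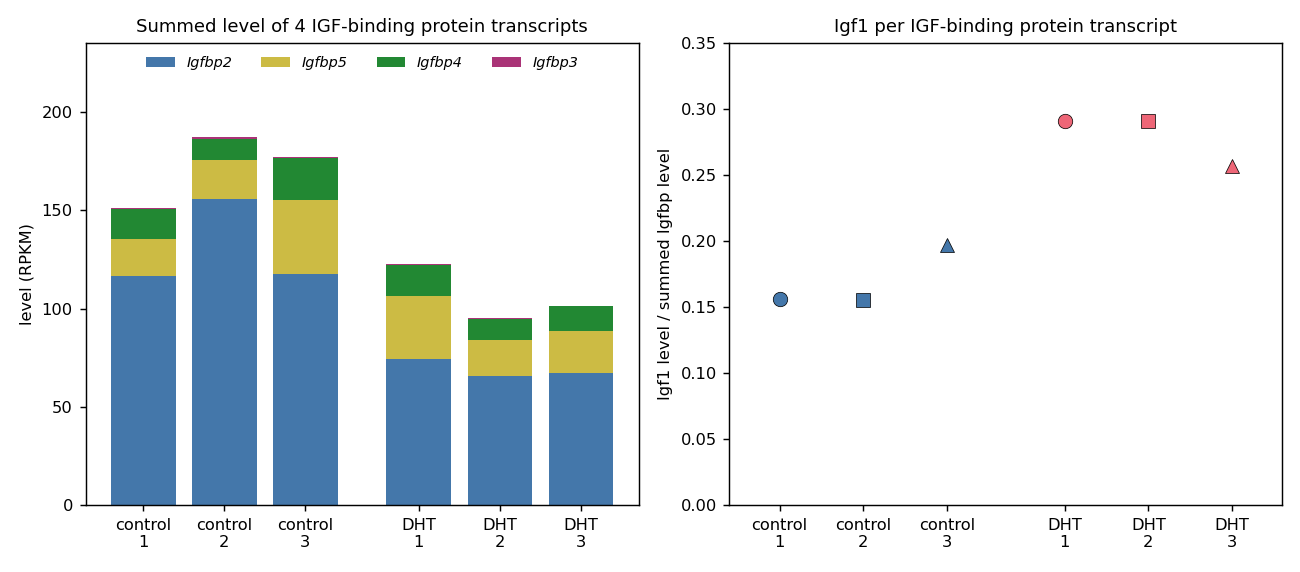
Left, summed level of *Igfbp2*, *Igfbp5*, *Igfbp4* and *Igfbp3* in each library (RPKM, stacked bars from 0), and right, the *Igf1* level divided by that sum in each library. The sum is 151 to 187 in control and 95.3 to 122 in DHT libraries, and *Igfbp2* is the largest part of every bar.

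*Igf1*, *Igfbp4* and *Igfbp5* varied between libraries of the same group more than most genes with a mean normalized count of at least 1000. The coefficient of variation within groups was 18.4% for *Igf1*, 29.1% for *Igfbp4* and 37.2% for *Igfbp5*, where the median of those 7029 genes was 3.80%. Of those genes, 98.9% varied less than *Igf1* and 99.8% less than *Igfbp5*. The called genes *Igfbp2* (16.1%), *Irs2* (14.0%) and *Irs1* (10.9%) also varied more than most, with 98.4%, 97.7% and 95.6% of the genes below them. *Insr*, at 1.69%, was at the other end, and 6.54% of the genes varied less. The 3 genes whose log2 values followed *Igf1* most closely over the 6 libraries, among 11633 genes with a mean of at least 100, were *Bdnf*, *Cdk5rap2* and *Robo2*, each with a Pearson r of 0.993. *Bdnf*, which encodes a neurotrophin, had normalized counts of 888, 1241 and 1854 in control and 1841, 1192 and 1159 in DHT libraries, high in the same libraries as *Igf1*. Among the 8 other genes of the group with a mean of at least 100, *Igfbp5* was the closest to *Igf1* (Pearson r = 0.877), and *Igf1r* had an r of -0.68. These correlations run over 6 libraries, 3 of them treated with DHT, and describe those libraries.

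**Figure D4:**
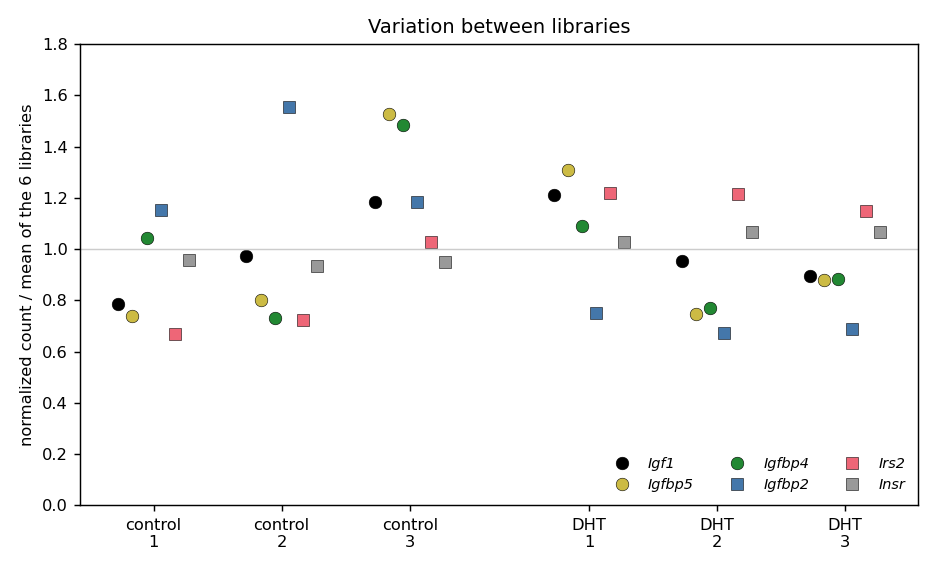
Normalized count of 6 genes in each library divided by the mean of that gene over the 6 libraries (vertical axis, from 0). *Igf1*, *Igfbp5* and *Igfbp4* (circles) are high in control replicate 3 and DHT replicate 1, while *Igfbp2*, *Irs2* and *Insr* (squares) separate the 2 groups.

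Other parts of the system were followed through a list of 17 ligands, receptors, binding proteins and regulators, of which 11 were tested. The list also counts the docking proteins *Irs3* and *Irs4*, which lie inside the cell, and *Irs3* is among the 11. Of the 11, 2 were higher (*Htra1* and *Ghr*), 2 were lower (*Stc2* and *Igf2r*) and 7 did not pass, against 6.52% higher and 4.66% lower of all genes tested. The median log2 fold change of the 11 was -0.09. *Stc2*, whose product stanniocalcin 2 blocks PAPPA, had normalized counts of 1354, 1375 and 1251 in control and 844, 914 and 840 in DHT-treated GCs. The groups lay well apart, with a log2 fold change of -0.61 ± 0.06 (SE; limma adjusted p = 0.000348). Its paralog *Stc1* had 415, 427 and 662 in control and 718, 636 and 570 in DHT-treated GCs, and did not pass, with a log2 fold change of 0.38 ± 0.17 (SE; limma adjusted p = 0.196). *Stc1* passed in 1 of 6 fits that left out 1 library, the one without control replicate 3 (0.60, limma adjusted p = 0.00446). In the other fits of this kind its log2 fold change was 0.26 to 0.46, with a limma adjusted p of 0.231 to 0.429.

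*Htra1*, a secreted serine protease that cleaves IGFBP5 among other substrates, was the most abundant of these genes. Its normalized counts were 28763, 33231 and 31341 in control and 41310, 44188 and 45946 in DHT-treated GCs, and the groups were far apart. It rose by 0.50 ± 0.06 on the log2 scale (SE; limma adjusted p = 0.00129). *Htra3*, a related protease, was scarce, with 40.8 to 53.9 in control and 56.8 to 82.7 in DHT-treated GCs (log2 fold change 0.60, limma adjusted p = 0.0947).

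*Igf2r*, the receptor that takes IGF2 up for degradation, had normalized counts of 7789, 7593 and 7664 in control and 6040, 6070 and 5814 in DHT-treated GCs. The log2 fold change was -0.36 ± 0.03 (SE; limma adjusted p = 0.000373). Its ligand *Igf2* was close to the limit of testing, at 13.9 to 14.9 in control and 8.81 to 17.4 in DHT-treated GCs (limma adjusted p = 0.661), and its level per length was 0.0659 RPKM in control GCs, against 29.1 RPKM for *Igf1*. The *Igf2* exons share 3596 of 5723 bases with the gene model *Gm49394* on the same strand, so its reads are uncertain. *Ghr*, the growth hormone receptor, had 2791, 2832 and 2776 in control and 3462, 4097 and 3891 in DHT-treated GCs, all DHT libraries above all controls. Its log2 fold change was 0.44 ± 0.06 (SE; limma adjusted p = 0.00169). *Igfbp6* (log2 fold change -0.10), *Igfbp7* (-0.07) and *Pappa2* (-0.09) did not pass, with limma adjusted p of 0.728, 0.625 and 0.892. The calls for *Stc2*, *Htra1*, *Igf2r* and *Ghr* held in 6 of 6 fits that left out 1 library.

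Inside the cell, 31 genes of the steps from the adaptors through PI3K and AKT to mTOR were tested. By limma, 1 was higher, 0 were lower and 30 did not pass, where 6.52% of all genes tested were higher and 4.66% lower, with log2 fold changes from -0.20 to 0.45 and a median of 0.03. *Pik3r2*, a regulatory subunit of PI3K, had normalized counts of 3177, 3109 and 3285 in control and 3540, 3558 and 3585 in DHT-treated GCs. Its log2 fold change was 0.16 ± 0.04 (SE; limma adjusted p = 0.0248), and the call was lost in 5 of 6 fits that left out 1 library, all but the one without control replicate 3, with a limma adjusted p of up to 0.0992.

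Of the 11 FOXO factors and genes that FOXO activates, 2 were higher, 1 was lower and 8 did not pass, beside the 6.52% higher and 4.66% lower of all genes tested, with a median log2 fold change of 0.02. *Foxo3* had normalized counts of 6359, 5993 and 5892 in control and 8355, 8887 and 9229 in DHT-treated GCs (log2 fold change 0.54 ± 0.05 SE, limma adjusted p = 0.000239). *Foxo1*, the FOXO factor best known in GCs, had 12664, 13166 and 11470 in control and 10370, 11024 and 10576 in DHT-treated GCs (log2 fold change -0.22 ± 0.05 SE, limma adjusted p = 0.0302). Per length, *Foxo3* stood to *Foxo1* at 0.561 ± 0.035 without and 0.948 ± 0.044 with DHT (SD, n = 3). The lack of overlap in this ratio likewise follows from the separation of both genes in opposite directions. The *Foxo1* call was lost in 5 of 6 fits that left out 1 library, all but the one without control replicate 3, with a limma adjusted p of up to 0.107. *Fbxo32*, which encodes the ubiquitin ligase atrogin-1, had 2027, 1730 and 1487 in control and 2550, 3011 and 2874 in DHT-treated GCs, with a log2 fold change of 0.69 ± 0.10 (SE; limma adjusted p = 0.00332, and 0.0509 without the intensity trend). Exons of *Foxo1* overlap a gene model on the other strand over 674 of 8665 bases and those of *Fbxo32* over 186 of 6976, with the same doubt about strand as for *Irs1*.

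**Figure D5:**
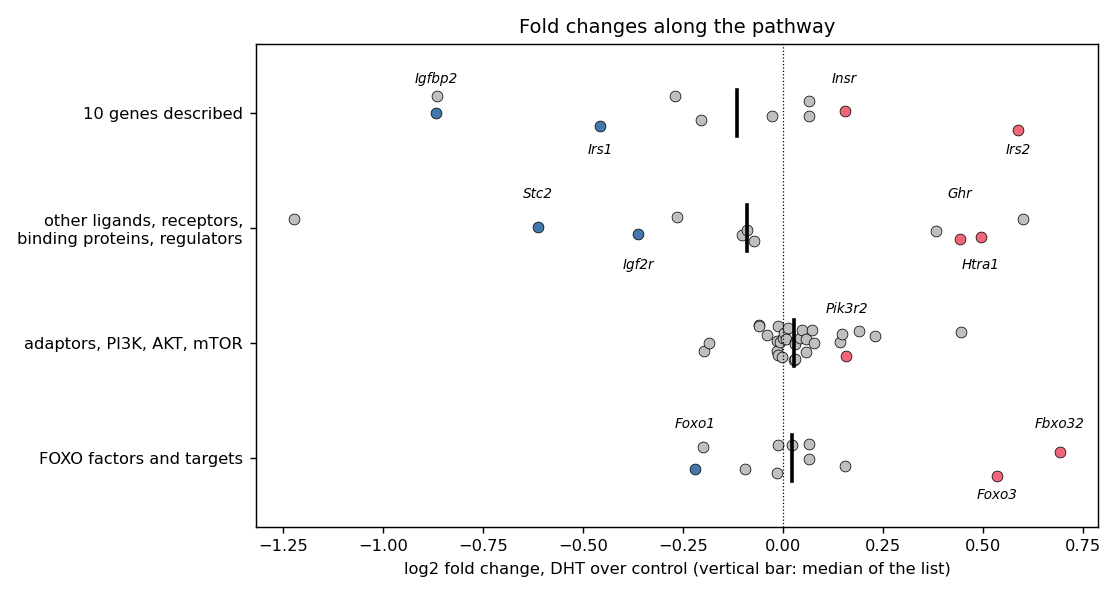
Log2 fold change of DHT over control (horizontal axis) for every tested gene of 4 lists, one row per list, with points spread vertically for legibility and a vertical bar at the median. Red points were called higher and blue points lower by limma (adjusted p ≤ 0.05), and called genes are named. All but 1 of the 31 genes from the adaptors to mTOR are grey.

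The libraries held 36111177 to 41928585 reads on genes. The granulosa markers, 11 of 12 of which were analysed, summed to 282324 to 295993 normalized counts in control and 295870 to 314432 in DHT libraries, with log2 fold changes from -0.85 to 0.49. By limma, 2 of these 11 markers were called higher and 3 lower, where 6.52% and 4.66% of all genes tested were. The markers of pericytes and smooth muscle (4 of 5 analysed) summed to 4632 to 6802 in control and 8668 to 10274 in DHT libraries, with no overlap. Of these 4 markers, 3 were called higher by limma, where 6.52% of all genes tested were, and their median log2 fold change was 0.71. Those of macrophages and leukocytes (4 of 6 analysed) summed to 471 to 546 and 362 to 605, with 1 called lower, where 4.66% of all genes tested were. No marker of the remaining lists was called. Those of endothelium (4 of 5) summed to 150 to 179 and 141 to 199, those of the surface epithelium (6 of 6) to 3907 to 4438 and 3113 to 4045, and those of theca and interstitium (6 of 8) to 7574 to 9413 and 8535 to 9674. The oocyte markers summed to 337 to 788 in control and 108 to 600 in DHT libraries, lowest in DHT replicate 2, where *Zp3* was at 0. The part of other cell types in the changes of *Igfbp2*, *Irs1*, *Irs2* and *Insr* was not tested, and in bulk samples fewer cells of a type and less RNA per cell cannot be told apart.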

How the data were processed

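The authors trimmed the reads with Trimmomatic 0.36, aligned them to GRCm38 with STAR 2.5.2b and counted them per gene with Subread 1.5.2, as given in the methods and in the submitters' processing notes. The signal that the authors deposited is a normalized count, that is, each gene's reads over a size factor from DESeq2. The table also holds the authors' own log2 fold changes, p-values and adjusted p-values for DHT against control, which were not used. Dividing each library's values by their common step gave back the reads, and 100% of the values came out whole within 0.001 of a read. Libraries of the same group differed beyond counting noise, with a mean chi-square per gene of 5.46 or more.

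For testing, log2(value + 1) was fitted by limma 3.58.1 (R 4.3.3) with an intensity trend. Genes under a mean of 10 were left out, and p-values were adjusted by Benjamini-Hochberg. This pseudocount understates the fold changes of low genes. An exact permutation test of 3 libraries against 3 cannot give a p below 0.1. Levels per length (RPKM) used the recovered reads and the union of the GENCODE M21 exons. The alternatives were pseudocounts of 0.5 and 8, no minimum, a minimum mean of 50, TMM scaling, quantile normalization, the replicate block, no intensity trend, edgeR 4.0.16 and DESeq2 1.42.0 on the recovered reads, and each library left out in turn.

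The genes and lists were chosen with earlier results of these data known. All 10 genes, the list of ligands, receptors, binding proteins and regulators, genes of the other lists that passed the adjusted p of 0.05, and the 3 genes most like *Igf1* were named by rule. Of the genes listed, *Ins1*, *Ins2*, *Insrr*, *Igfbp1*, *Igfals*, *Irs4* and the markers *Cyp19a1*, *Cyp17a1*, *Insl3*, *Emcn*, *Adgre1*, *Itgam* and *Rgs5* were not analysed here.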

Additional observations from a re-analysis of the deposited data

How the results depend on the processing

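Of 160 refits of the 10 genes, 140 kept the direction and the side of the threshold. Among the 10 genes, 2 were called higher and 2 lower. Without the intensity trend the counts were 0 and 1, since *Insr* (limma adjusted p = 0.0919), *Irs2* (0.121) and *Irs1* (0.0854) were lost. With the replicate block 1 was called higher, since *Insr* was lost (0.108). Over the fits without 1 library, 0 to 2 were called higher and 1 to 3 lower. Of the adaptor to mTOR genes, 1 was called higher and 0 lower. The counts of genes called higher were 0 without the trend, 0 with the replicate block, 3 by DESeq2 and 0 to 3 without 1 library, and those called lower 1 by quantile normalization, 2 by DESeq2 and 0 to 1 without 1 library. Of the FOXO list, 2 were called higher and 1 lower, which became 1 and 0 without the trend, where *Fbxo32* (limma adjusted p = 0.0509) and *Foxo1* (0.131) were lost, 0 lower with the block, and 0 to 1 lower without 1 library. Leaving out a library also leaves fewer samples, and the cause of the other differences was not tested.

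Log2 fold changes reversed over the fits without 1 library for *Igf1* (-0.085 to 0.21, below 0 without control replicate 1 and, at -0.06, DHT replicate 1), *Igfbp4* (-0.46 to 0.050, above 0 without control replicate 3), *Igfbp5* (-0.26 to 0.30, above 0 without control replicate 3 and, at 0.15 and 0.03, DHT replicates 2 and 3), *Igfbp6* (-0.23 to 0.065) and *Pappa2* (-0.23 to 0.15). None of these had passed the test. With the longest transcript as the length, the summed *Igfbp* level was 228 in control and 137 in DHT-treated GCs. The share of *Igfbp2* was then 80.4% and 71.6%, and *Igf1* per unit of the sum 0.180 and 0.304, in the same order. With *Igfbp6* and *Igfbp7* in the sum, chosen after seeing the data, the values in control and DHT-treated GCs were 212 and 144 for the sum, 61.2% and 48.2% for the share of *Igfbp2*, and 0.137 and 0.206 for *Igf1* per unit of the sum.

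The replicate numbers are shared by the groups, but the deviations of same-numbered libraries correlated at 0.0058, 0.067 and -0.24 across genes, so the numbers were not taken to pair the libraries. *Igfbp3*, *Pappa* and *Igf2* had few reads, and the part of depth in their errors was not tested.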
